A study of Mus musculus with 13 samples.

Results

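The Vegf and angiopoietin pathway genes described here were the ligands Vegfa, Angpt1 and Angpt2, the receptors Kdr, Flt1, Flt4, Nrp1, Tek and Tie1, and Egfl7, a factor secreted by endothelial cells. A peak of open chromatin was assigned to a gene when it overlapped the gene body or the 2 kb upstream of it (mm10, GENCODE annotation). The rule found 227 peaks of 300755 in the series, in 10 genes of the 32949 that had at least 1 peak. Of these, 177 lay in introns, 32 over exons away from an annotated start, 15 over an annotated start and 3 upstream.

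The study profiled single nuclei of whole mouse kidneys by snATAC-seq, which reads open chromatin through transposase insertions. Newborn kidneys (P0) gave 2 samples. Adult kidneys gave 3, of which 1 was taken at P21 and 2 at P56, and adult mice alone were perfused before the kidneys were removed. The labels give no genotype, treatment, strain or sex for these samples. The 28316 nuclei carry deposited cluster names, and 13 clusters were used: nephron progenitors (NP), the epithelial clusters Podo (podocytes), PCT and PST (convoluted and straight parts of the proximal tubule), LOH (the loop of Henle), DCT and CNT (distal convoluted and connecting tubules), PC and IC (principal and intercalated cells), the endothelium (Endo), Stroma 1, Stroma 2 and Immune.

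Vegfa is secreted by podocytes and tubule cells and acts on the receptor tyrosine kinases Kdr and Flt1 of nearby capillaries, with Nrp1 as a co-receptor. Flt1 also works as a decoy that holds back Vegfa, and Flt4 is the receptor for Vegfc and Vegfd, best known from lymphatic vessels. Angpt1 activates the endothelial receptor Tek and steadies vessels, Angpt2 can oppose it, and Tie1 is an orphan receptor that pairs with Tek. The signal thus runs from epithelium and stroma to endothelium, and in the glomerulus it maintains the fenestrated capillary.

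An entry of the deposited matrix says whether a nucleus had a fragment in a peak, so a share of open nuclei grows with the number of open peaks per nucleus. In Endo the median was 7196 and 6509 open peaks per nucleus in P0 samples 1 and 2, and 2099, 2442 and 2306 in P21 sample 1 and P56 samples 1 and 2. Shares are therefore given as deposited and, where said, after each nucleus was thinned to 1000 open peaks. Sums of open calls are given as CPM, the calls per 1000000 open calls of the same cluster and sample. The Endo cluster held 592 and 412 nuclei at P0 and 221, 712 and 431 in the adult samples, and 477 barcodes occurred in more than 1 sample. The 7 endothelial marker genes (Cdh5, Pecam1, Emcn, Plvap, Esam, Cldn5, Ehd3) were each highest in Endo among the 13 clusters, whereas the lymphatic genes Prox1, Lyve1 and Pdpn were highest in NP, Stroma 2 and Podo. The clusters were built on the open chromatin of the same nuclei, and Egfl7 was among the genes used to name Endo, so differences between clusters are described without a test. Fewer nuclei of one kind within a cluster and less open chromatin per nucleus cannot be told apart in sums.

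The windows below are the central 300 bases of 6 peaks on which the results turn, printed 5′ to 3′ on the plus strand of mm10 from the RefSeq copy of that assembly. Peaks are numbered along the chromosome within each gene. Capitals mark every match, on either strand, to 1 of 6 short motifs, which are AGGAAG for ETS factors, TGTTTA for FOX factors, AGATAA for GATA factors, ACGTG for HIF factors, CAAAGTC for HNF4 and GTTAAT for HNF1. Peaks 6 and 7 of Vegfa are shown because they are neighbours with different patterns, Kdr peak 11 and Flt1 peak 4 because they were called between stages in each setting tried, and Tek peak 13 and Egfl7 peak 1 because they had the highest Endo share of their genes.
Vegfa peak 6, chr17:46027523-46027822: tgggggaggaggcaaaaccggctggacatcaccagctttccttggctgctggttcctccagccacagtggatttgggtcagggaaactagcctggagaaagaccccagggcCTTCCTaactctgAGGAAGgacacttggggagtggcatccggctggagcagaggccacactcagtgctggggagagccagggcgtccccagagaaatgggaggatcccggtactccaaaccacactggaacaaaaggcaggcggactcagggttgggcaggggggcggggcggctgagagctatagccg
Vegfa peak 7, chr17:46028871-46029170: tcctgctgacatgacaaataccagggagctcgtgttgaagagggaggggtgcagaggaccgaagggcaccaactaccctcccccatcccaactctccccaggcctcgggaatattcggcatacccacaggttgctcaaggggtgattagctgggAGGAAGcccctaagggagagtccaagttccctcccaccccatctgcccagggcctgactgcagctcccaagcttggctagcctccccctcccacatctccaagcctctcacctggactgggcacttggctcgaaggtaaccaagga
Kdr peak 11, chr5:75962175-75962474: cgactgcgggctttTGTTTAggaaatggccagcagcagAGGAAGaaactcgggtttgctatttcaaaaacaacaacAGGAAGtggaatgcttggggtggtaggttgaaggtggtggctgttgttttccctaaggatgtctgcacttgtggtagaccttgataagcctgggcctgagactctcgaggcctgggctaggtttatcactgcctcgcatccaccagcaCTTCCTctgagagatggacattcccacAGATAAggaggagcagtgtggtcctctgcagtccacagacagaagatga
Flt1 peak 4, chr5:147579837-147580136: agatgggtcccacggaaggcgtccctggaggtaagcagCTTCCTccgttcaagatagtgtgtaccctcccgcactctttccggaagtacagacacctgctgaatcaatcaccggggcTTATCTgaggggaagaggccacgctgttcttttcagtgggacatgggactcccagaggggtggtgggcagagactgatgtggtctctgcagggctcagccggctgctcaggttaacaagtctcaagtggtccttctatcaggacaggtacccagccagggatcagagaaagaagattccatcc
Tek peak 13, chr4:94830136-94830435: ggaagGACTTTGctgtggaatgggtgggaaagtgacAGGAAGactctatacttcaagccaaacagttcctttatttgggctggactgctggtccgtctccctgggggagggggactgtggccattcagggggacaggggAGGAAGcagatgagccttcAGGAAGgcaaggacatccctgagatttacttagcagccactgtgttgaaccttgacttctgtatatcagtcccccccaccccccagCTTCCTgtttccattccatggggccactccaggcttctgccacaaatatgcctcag
Egfl7 peak 1, chr2:26578450-26578749: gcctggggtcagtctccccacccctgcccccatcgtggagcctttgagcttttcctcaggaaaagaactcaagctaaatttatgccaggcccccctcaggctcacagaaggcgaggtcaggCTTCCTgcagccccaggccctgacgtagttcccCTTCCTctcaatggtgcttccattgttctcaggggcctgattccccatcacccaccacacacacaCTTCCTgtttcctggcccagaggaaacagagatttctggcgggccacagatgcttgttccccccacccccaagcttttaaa
The ETS letters, a core that ERG, FLI1 and other endothelial ETS factors can bind, occurred in all 6 windows. Tek peak 18, which was also called in each setting but is not printed, held none of the 6 motifs in its window. Tek peak 13 held 4 matches, Kdr peak 11 and Egfl7 peak 1 held 3 each, Vegfa peak 6 held 2, and Vegfa peak 7 and Flt1 peak 4 held 1 each. Of the 41 peaks of these genes that Endo led, as defined below, 61% held an ETS match, beside 65.4% of all 4903 such peaks of the series with a full window, 38.1% of all 300693 peaks and 34% of the 50 peaks of these genes on the epithelial side. The share in these genes was thus close to that of peaks led by Endo at large. For FOX the shares were 9.76%, 18.4%, 21% and 24% in the same order. For GATA they were 19.5%, 16.8%, 15.3% and 18%, and for HIF 9.76%, 15.2%, 14.9% and 12%. For HNF4 they were 7.32%, 4.71%, 5.81% and 4.0%, and for HNF1 4.88%, 7.02%, 11.8% and 12%.

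At many of their peaks Kdr, Flt1, Flt4, Tek, Tie1 and Egfl7 were more open in Endo than in epithelium, whereas no peak of Vegfa or Angpt1 was so in all 5 samples. Nrp1, the remaining receptor, was open in each cluster. A peak was placed on the Endo side when its share of open nuclei was above the mean of the 8 epithelial clusters in all 5 samples, and on the epithelial side when below in all 5. Of the 189 peaks open in at least 1% of nuclei of some cluster, 71 (37.6%) were on the Endo side and 50 (26.5%) on the epithelial side. Among all 237161 such peaks of the series, 9.39% were on the Endo side and 46.7% on the epithelial side. After thinning, the counts for these genes were 57 and 27. The shares over all peaks were not computed after thinning, so the thinned counts here and below stand without a background.

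All 13 Kdr peaks, all 6 Egfl7 peaks, 14 of 16 Tek peaks, 21 of 32 Flt1 peaks, 8 of 12 Flt4 peaks and 2 of 4 Tie1 peaks were on the Endo side. None of the 9 Vegfa peaks and none of the 36 Angpt1 peaks was. On the epithelial side were 8 of 9 Vegfa peaks (88.9%) and 16 of 36 Angpt1 peaks (44.4%), the latter near the share over all peaks. Angpt2 had 2 of 22 peaks on the Endo side and 12 on the epithelial side, and all its peaks also lie within Mcph1, the gene that contains it. Nrp1 had 5 of 39 on the Endo side, 11 on the epithelial side and 23 on neither. After thinning the epithelial side held 5 Vegfa, 7 Angpt1, 5 Angpt2 and 7 Nrp1 peaks, and the Endo side 10 Kdr, 5 Egfl7, 11 Tek, 16 Flt1, 6 Flt4 and 2 Tie1 peaks.

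**Figure D1:**
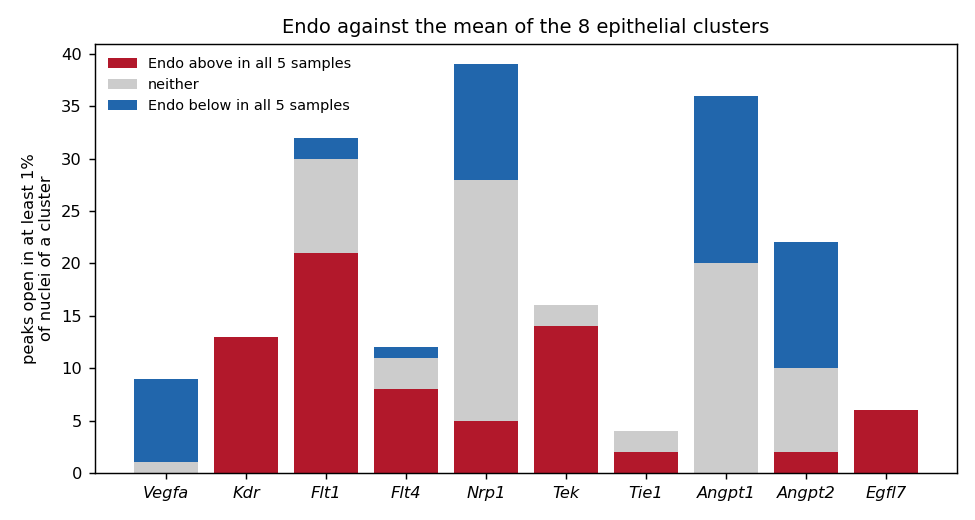
Number of peaks of each gene (bars) open in at least 1% of nuclei of a cluster, split by whether Endo was above the mean of the 8 epithelial clusters in all 5 samples, below it in all 5, or neither, in shares as deposited. All 13 Kdr peaks were above and 8 of 9 Vegfa peaks below.

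Endo had the highest share of all 13 clusters in all 5 samples at 41 of the 189 peaks (21.7%), beside 2.07% of all peaks of the series. After thinning, 26 were led by Endo. Kdr and Flt1 gave 11 of the 41 each, Tek 8, Flt4 5, Egfl7 3, Nrp1 2 and Tie1 1. As deposited, other clusters led 13 peaks, of which only Angpt2 peak 14 was also led by its cluster after thinning. PST led Vegfa peak 8, Flt4 peak 12 and Angpt2 peak 14, PCT led Vegfa peak 7 and Angpt1 peak 45, and Stroma 2 led Angpt1 peaks 22, 29 and 46. IC led Nrp1 peaks 23 and 44 and Angpt2 peak 1, NP led Angpt2 peak 17 and Immune led Nrp1 peak 21. Of all peaks of the series, PST led 3.73%, Stroma 2 2.42%, IC 1.45%, Immune 1.3%, PCT 1.16% and NP 0.128%, and the 3 of 189 led by PST were below its share.

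The share of nuclei with at least 1 open peak of a gene was taken after thinning, which gives each nucleus the same number of open peaks but matches nothing else between clusters. Nuclei under 1000 open peaks were left out, in Endo 15 and 15 at P0 and 32, 46 and 32 in adults, and in PST 0 and 1 at P0 and 10, 12 and 1 in adults. Genes with more or wider peaks reach higher shares, so these levels compare clusters, not genes.

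**Figure D2:**
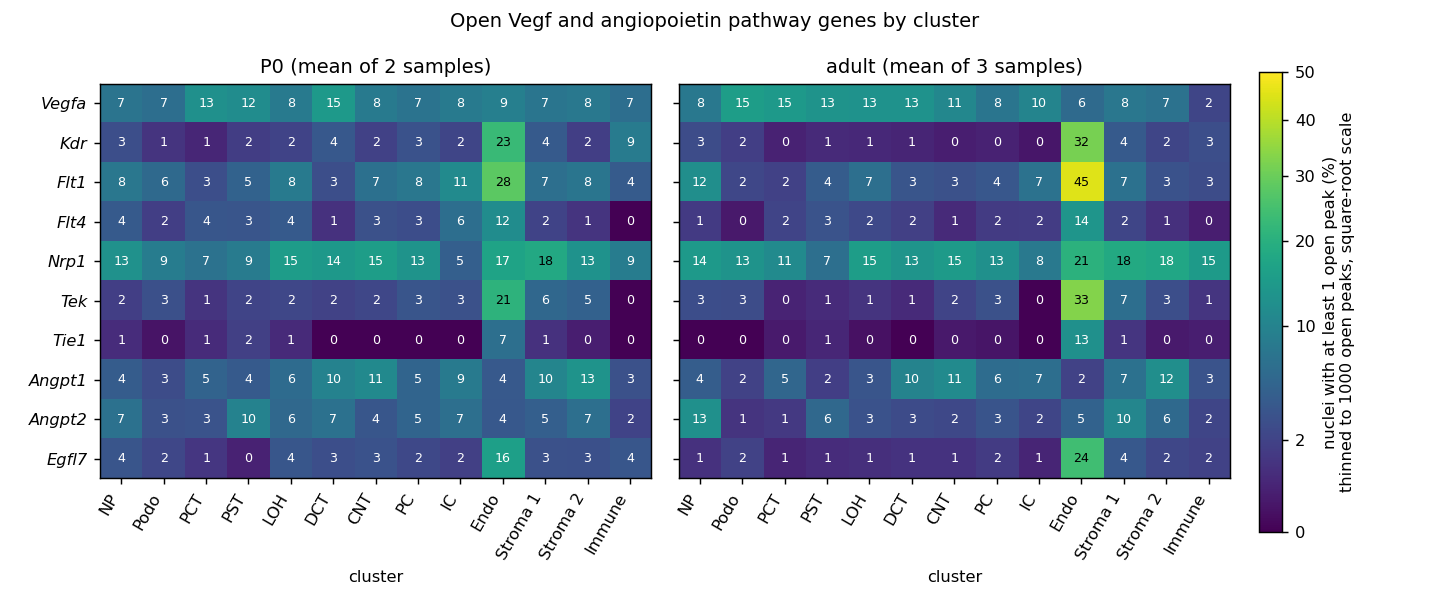
Share of nuclei (%) with at least 1 open peak of each gene (rows) in each cluster (columns) after thinning to 1000 open peaks per nucleus, as the mean of the 2 P0 samples and of the 3 adult samples. Kdr, Flt1, Tek, Tie1 and Egfl7 are highest in Endo at both stages, and Vegfa is spread over the tubule.

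Kdr, the main signalling receptor for Vegfa, lies on chr5:75932827-75978458. The share of Endo nuclei with an open Kdr peak after thinning was 23.1% and 22.7% at P0 and 31.7%, 31.4% and 32.1% in adults. The epithelial mean was 2.04% ± 0.181 at P0 and 0.635% ± 0.233 in adults (SD, n = 2 and n = 3, as for every ± below). Every Endo sample was above every sample of the next cluster, Immune at P0 and Stroma 1 in adults.

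The peak over the Kdr start (peak 15) was open, as deposited, in 28.5% and 24.8% at P0 and 18.1%, 12.5% and 18.6% in adults in Endo. The most open Kdr peak in Endo was peak 1, which overlaps an exon 44.5 kb from the start, at chr5:75933591-75934284. As deposited it was open in 42.6% and 37.1% at P0 and 21.3%, 22.8% and 33.6% in adults. The epithelial mean there was 0.758% ± 0.533 at P0 and 0.652% ± 0.402 in adults, far under each Endo sample. Immune nuclei had 12.6% ± 2.07 at P0 and 3.96% ± 3.43 in adults at this peak.

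Flt1, the decoy receptor, spans chr5:147561604-147726011. After thinning it was open in Endo in 28.8% and 27.2% at P0 and 41.3%, 43.8% and 50.1% in adults, so each adult sample was above both P0 samples. The epithelial mean was 6.38% ± 0.403 at P0 and 4.06% ± 1.05 in adults. Its start-site peak (peak 37) was open as deposited in 38.2% and 36.9% at P0 and 25.3%, 19.2% and 32.3% in adults in Endo, beside epithelial means of 6.56% ± 0.687 at P0 and 2.34% ± 1.45 in adults.

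Both Flt1 and Flt4 held a peak far from the start that was open in epithelium and nearly closed in Endo. Flt1 peak 2, over an exon 161.8 kb from the start, was open in 34.3% ± 9.6 at P0 and 17.7% ± 1.43 in adults in IC, and in at most 1.46% of Endo nuclei in any sample. Flt4 peak 12, over an exon 41.8 kb from the start, was open in 25.3% ± 1.7 at P0 and 18.5% ± 3.91 in adults in PST. In Endo it was open in 2.87% and 2.67% at P0 and 0.452%, 1.12% and 2.32% in adults.

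Flt4, the receptor for Vegfc and Vegfd on chr11:49609263-49652739, was nevertheless most open in Endo as a whole gene after thinning. The thinned Endo share was 12.5% and 11.1% at P0 and 14.3%, 12.5% and 14% in adults, beside epithelial means of 3.28% ± 0.919 at P0 and 1.71% ± 0.123 in adults. As deposited, adult Endo and adult PST overlapped. Its most open Endo peak was peak 3, in an intron 4.5 kb from the start (chr11:49613448-49614021), at 22.5% and 18.7% at P0 and 11.3%, 10.7% and 18.6% in adults.

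Tek, the receptor for the angiopoietins on chr4:94739289-94874976, was open after thinning in 20.5% and 21.4% at P0 and 28.6%, 40.4% and 30.1% in adults in Endo. Stroma 1 had 6.24% and 4.99% at P0 and 7.04%, 8.6% and 4.12% in adults, and no sample of another cluster reached an Endo sample. The highest Endo share was at peak 13, over an exon 91 kb from the start. That peak was open as deposited in 37.5% and 33% at P0 and 22.6%, 23.2% and 30.2% in adults in Endo. The start-site peak (peak 1) had 19.4% and 13.6% at P0 and 5.43%, 10.4% and 7.42% in adults, lower than peak 13 in each sample.

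Tie1, the partner of Tek on chr4:118471191-118490061, had a single peak that Endo led, peak 7 over its start at chr4:118489581-118490399. The share in Endo was 42.7% and 41.5% at P0 and 26.2%, 26.3% and 34.8% in adults. The epithelial mean was 0.302% ± 0.11 at P0 and 0.701% ± 0.587 in adults. The thinned Endo shares were 6.07% and 6.55% at P0 and 8.99%, 11.1% and 15% in adults, so adult samples were above both P0 samples on that scale and below them as deposited.

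Egfl7, which helps guide vessel growth, lies on chr2:26580014-26593120 and had its highest Endo share upstream of the gene, at peak 1 (chr2:26578237-26578964). It was open in 46.3% and 39.8% at P0 and 25.3%, 23% and 32% in adults in Endo, beside epithelial means of 0.89% ± 0.186 at P0 and 1.23% ± 1.12 in adults. Egfl7 peak 5, over the start of a shorter transcript and also in the window of Gm20532, had epithelial means of 11.7% ± 0.425 at P0 and 2.46% ± 0.917 in adults.

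Nrp1, the co-receptor that also binds semaphorins, spans chr8:128358604-128503363 and was open in each cluster. Its start-site peak (peak 1) was open in 42.7% and 40.3% at P0 and 20.4%, 26.1% and 22.7% in adults in Endo, beside epithelial means of 25.2% ± 2.59 at P0 and 22.1% ± 7.24 in adults. In adults PCT had 33% ± 10.8 and PST 31.2% ± 14.6, so that as deposited Endo was within the spread of the epithelium. After thinning, Endo was above the epithelial mean in all 5 samples at this peak, with 6.59% and 6.3% at P0 and 6.88%, 9.76% and 9.77% in adults. An intronic peak 28.8 kb from the start (peak 9) was led by Endo, with 23.6% and 24.3% at P0 and 5.88%, 15.2% and 10.2% in adults, beside epithelial means of 1.24% ± 0.012 at P0 and 0.848% ± 0.436 in adults. After thinning and summed over the gene, Stroma 1 was above Endo at P0, 18.2% ± 0.118 against 16.9% ± 1.4.

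Vegfa lies on chr17:46016993-46032369 on the minus strand, with 9 peaks. After thinning it was open in 9.31% ± 1.05 of Endo nuclei at P0, and the epithelial means were 9.75% ± 0.503 at P0 and 12.2% ± 1.75 in adults, so that at P0 the difference was within the spread of the samples. Adult Endo had 5.93% ± 2.02, below the epithelial mean in all 3 samples. The adult order ran from Podo, PCT, PST, DCT and LOH down to Endo and Immune, and neighbours in that order overlapped. At P0 Podo instead had the lowest mean after thinning, with 6.6% ± 1.18, level with Immune at 6.6% ± 4.81. By sample Podo had 5.76% and 7.43% there, beside 3.19% and 10.0% in Immune. Neighbours in the P0 order overlapped as well. As deposited, PST had the highest mean at both stages, 66.6% ± 4.59 at P0 and 60.9% ± 14.4 in adults. Podo then had 30.3% ± 5.99 at P0 and 40% ± 14.9 in adults. Adult Podo sums came from 47, 157 and 39 nuclei.

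Both start-site peaks of Vegfa, peaks 9 and 8, were open throughout the tubule. Peak 9 was open as deposited in 32.5% ± 3.32 at P0 and 28.3% ± 14.7 in adults in PST. In Endo it was open in 20.9% and 20.1% at P0 and 4.98%, 7.44% and 7.19% in adults. Immune nuclei had 8.29% ± 3.16 at P0 and 10.5% ± 7.23 in adults. As deposited, peak 8 was highest in PST with 29.9% ± 1.95 at P0 and 31.4% ± 14.3 in adults, beside 14.7% and 12.4% at P0 and 3.62%, 1.54% and 4.41% in adults in Endo. The median PST nucleus had 10199 and 8547.5 open peaks at P0 and 5398.5, 5956 and 12173 in adults, above Endo in each sample. After thinning both peaks were on neither side, and PST no longer led peak 8.

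Peaks 7 and 6 lie 3.3 kb and 4.7 kb from the start in an intron, 581 bp apart, and had different patterns. As deposited, peak 7 was highest in PCT, with 27.1% ± 0.988 at P0 and 24.8% ± 9.78 in adults, and was open in 1.16% to 2.71% of Endo nuclei. Peak 6 was at P0 most open in Endo, with 26.4% ± 3.31, ahead of DCT with 20.4% ± 1.61, and the epithelial mean was 10.2% ± 0.0992. By sample, Endo had 28.7% and 24% at P0 and 9.05%, 12.8% and 4.64% in adults at peak 6, beside an adult epithelial mean of 7.51% ± 2.23, so this peak was on neither side, as were peaks 3, 8 and 9 after thinning. After thinning, peak 6 was open in 5.72% and 3.53% at P0 and 2.12%, 4.65% and 2.26% in adults in Endo, and the stages overlapped.

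**Figure D3:**
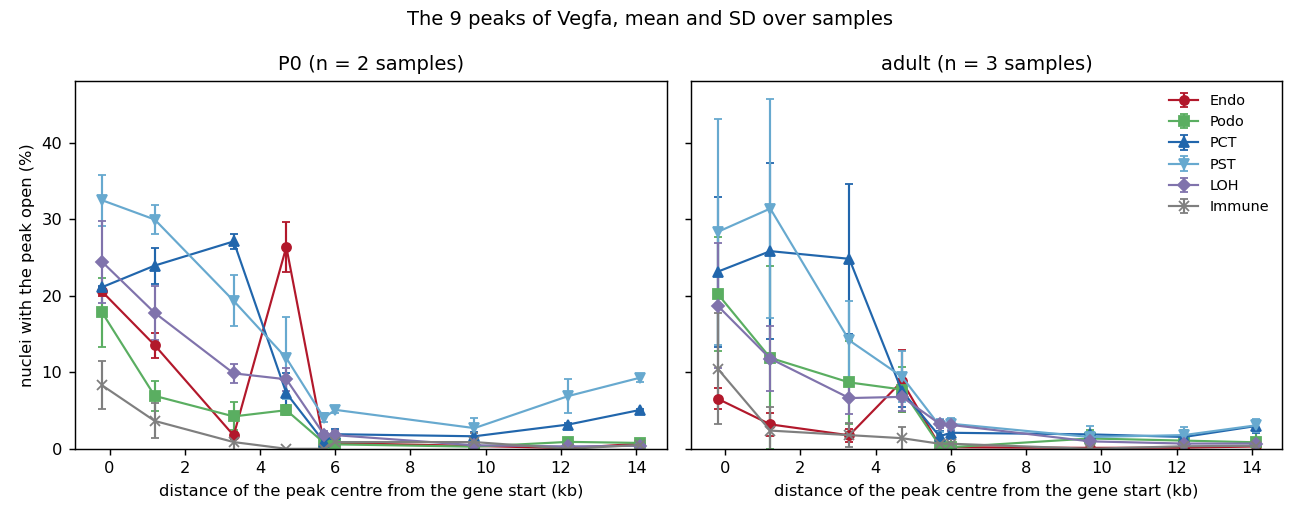
Share of nuclei (%) with each of the 9 Vegfa peaks open, as deposited, against the distance of the peak from the gene start, at P0 (n = 2) and in adults (n = 3). At peak 6 Endo stands highest at P0 with a mean of 26.4%, and at peak 7 PCT stands highest of the clusters drawn while Endo is under 3%.

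Angpt1, the ligand that activates Tek, spans chr15:42424723-42676977 and had 51 peaks, 36 of them open in at least 1% of nuclei of a cluster. After thinning, it was open in Stroma 2 in 15.8% and 10.7% at P0 and 10.4%, 14.4% and 12% in adults. In CNT it was open in 12.5% and 9.9% at P0 and 5.0%, 16.4% and 12.9% in adults, so both clusters overlapped. The Endo means were 3.87% ± 1.3 at P0 and 1.97% ± 0.16 in adults. The peak 2.3 kb inside the gene (peak 50) was open as deposited in 17.7% ± 1.1 at P0 and 8.26% ± 0.707 in adults in Stroma 2, and the start-site peak (peak 51) in 10.6% ± 0.901 at P0 and 7.25% ± 0.937 in adults. The intronic peak 24 was a tubule peak, open in 11% ± 1.75 at P0 and 9.04% ± 0.362 in adults in DCT and in at most 0.507% of Endo nuclei in any sample.

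Angpt2, the partial antagonist of Angpt1 on chr8:18690263-18741562, had different leading clusters at different peaks. After thinning, PST was highest at P0 (9.77% ± 0.192) and NP in adults (12.7% ± 4.03), where NP overlapped Stroma 1. Adult NP sums came from 52, 90 and 53 nuclei. NP is the deposited cluster name, and its loop of Henle list was higher in adults than at P0, as given below. Whether the adult NP nuclei are progenitors was not tested. Endo was below the epithelial mean in all 5 samples as deposited, but above it in the 3 adult samples after thinning, 4.94% ± 1.22 against 2.73% ± 0.562. The intronic peak 14 was open in 13.3% ± 10.3 at P0 and 12% ± 5.78 in adults in PST, peak 17 in 9.77% ± 0.114 at P0 and 14.4% ± 5.98 in adults in NP, and the start-site peak (peak 25) in 13.2% ± 3.5 at P0 and 2.68% ± 0.588 in adults in PST and 11.3% ± 3.32 at P0 and 3.45% ± 1.84 in adults in Endo.

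The genes whose summed open calls varied most like these over the 65 sums of 13 clusters and 5 samples were found among 22549 genes by Pearson correlation of log2(CPM + 1). For Kdr they were Gm45837 (r = 0.91), Pde2a (0.89), Exoc3l2 (0.88), Gm13391 (0.88) and Egfl7 (0.88). For Vegfa they were AC127690.2 (0.90), C130074G19Rik (0.89), Clmn (0.88), Camk2n1 (0.87) and Vps25 (0.86). For Angpt1 they were Gm17473 (0.78), which shares 2 of its peaks, A330076H08Rik (0.75), Dapl1 (0.71), Gm32834 (0.70) and Gm15809 (0.69). The sums share their libraries and differ in depth, and the values are descriptions.

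Between P0 and adult, 5 of these genes took a larger part of all open calls in Endo. Stages were compared within each cluster on sums of open calls per sample, with edgeR's quasi-likelihood test over all peaks or genes and a Benjamini-Hochberg adjusted p under 0.05. The log2 differences below are adult against P0, relative to all open calls of the cluster. Nothing says how many animals stand behind a sample, so the p-values measure only the spread between these samples.

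Summed per gene in Endo, Flt1 rose by 0.79 on the log2 scale (SE 0.13, edgeR adjusted p = 0.0013), from 341 ± 7.12 CPM at P0 to 571 ± 61.4 in adults. Tie1 rose by 0.77 (SE 0.17, edgeR adjusted p = 0.0056), Tek rose by 0.73 (SE 0.14, edgeR adjusted p = 0.0029), Egfl7 rose by 0.60 (SE 0.14, edgeR adjusted p = 0.0094) and Kdr rose by 0.59 (SE 0.14, edgeR adjusted p = 0.0079). Angpt1 fell by 1.02 (SE 0.20, edgeR adjusted p = 0.0035), from 42.8 ± 0.151 CPM at P0 to 22 ± 5.73 in adults. For each of these 6 genes the CPM of the stages did not overlap. Of all 21732 genes tested in Endo, 11.4% were higher in adults and 13.9% at P0. Vegfa (-0.23), Flt4 (0.18), Nrp1 (0.29) and Angpt2 (0.00) did not pass the test.

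These calls leaned on the P0 samples. Without P0 sample 1, Kdr, Tie1, Egfl7 and Angpt1 no longer passed (edgeR adjusted p = 0.12, 0.15, 0.12 and 0.099). Without P0 sample 2, Kdr, Tie1, Egfl7 and Tek no longer passed (edgeR adjusted p = 0.18, 0.11, 0.20 and 0.091). After thinning, Kdr, Egfl7 and Angpt1 no longer passed (edgeR adjusted p = 0.099, 0.055 and 0.13), with log2 differences of 0.45, 0.60 and -1.001. Flt1 passed in each of these settings.

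Marker lists moved in Endo between the stages too. The summed endothelial list had 893 to 931 at P0 and 1192 to 1280.0 in adults (CPM), and 4 of its 7 genes rose (Cdh5, Pecam1, Esam and Plvap), with a list median of 0.55, while Cldn5 fell by 1.32. The podocyte list had 452 to 468 at P0 and 603 to 752 in adults, and there Synpo rose by 0.65 and Podxl rose by 0.52. The pericyte list had 45.7 to 52.1 at P0 and 23.1 to 40.1 in adults, the immune list 25.7 to 27.9 at P0 and 13.2 to 22.2 in adults, the lymphatic list 63.7 to 66.6 at P0 and 27.5 to 44.4 in adults and the loop of Henle list 11.2 to 13 at P0 and 16.8 to 38.1 in adults. No endothelial marker was at 0 in Endo. The part of these shifts and of depth in the results was not tested.

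By peak, 77 of the 227 passed the filter on low counts in Endo, of which 30 rose and 1 fell, beside 14.8% and 16.6% of all 45215 peaks tested. Flt1 had 11 of 21 tested peaks that rose, Kdr 6 of 13, Tek 6 of 13, Egfl7 3 of 6, Nrp1 2 of 9, Tie1 1 of 1 and Flt4 1 of 7. None of 3 Vegfa, 2 Angpt1 and 2 Angpt2 peaks passed edgeR's test or DESeq2's, although Vegfa peak 8 and Angpt1 peak 50 had an unadjusted edgeR p under 0.05. The count of 30 became 6 without P0 sample 1, 10 without P0 sample 2, 17 with DESeq2, 11 without the filter and 3 after thinning. In shares as deposited, which are not scaled for depth, the adult mean was above the P0 mean at 10 of the 30. After thinning it was above at all 30, which had been chosen for this direction in the same samples.

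**Figure D4:**
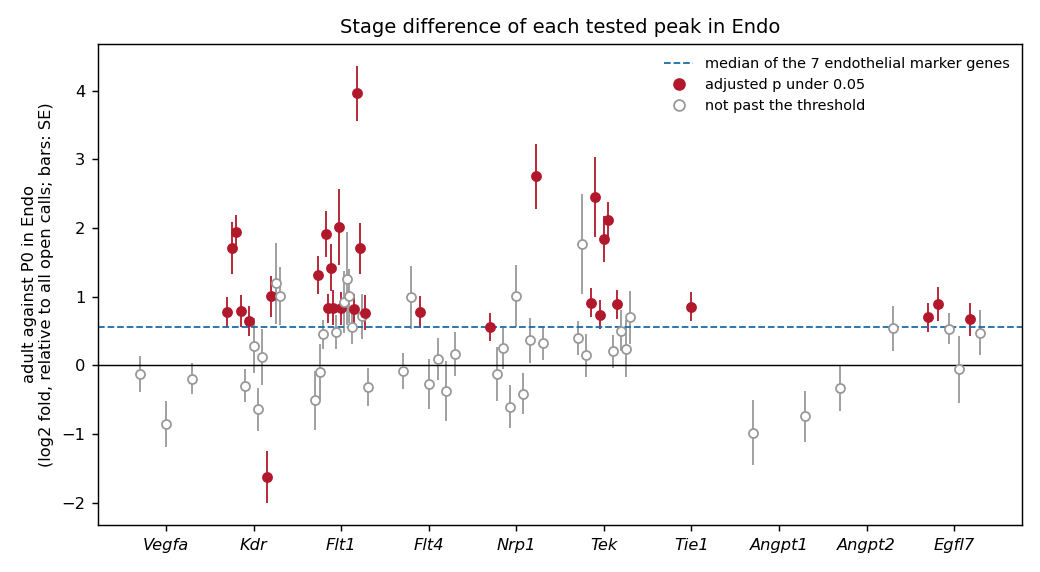
Log2 difference of adult against P0 in Endo, relative to all open calls, for each of the 77 peaks tested, by gene, with bars for the SE, filled points for an adjusted p under 0.05 and a dashed line at the median of the 7 endothelial marker genes, 0.55. Of the filled points, 30 lie above 0 and 1, in Kdr, below.

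Flt1 peak 4, Kdr peak 11 and Tek peak 18 were called in each of the 11 other settings tried. Flt1 peak 4, in an intron 146 kb from the start, was open as deposited in 1.69% and 0.485% at P0 and 5.88%, 7.02% and 8.35% in adults of Endo nuclei, so the stages did not overlap before scaling. It rose by 3.96 (SE 0.40, edgeR adjusted p = 1.9e-07).
Kdr peak 11, over an exon 16.1 kb from the start, was open in 13.5% and 13.1% at P0 and 14.9%, 17% and 26.2% in adults, again without overlap. Thinned shares were 1.56% and 2.02% at P0 and 6.88%, 6.91% and 9.52% in adults. It rose by 1.95 (SE 0.24, edgeR adjusted p = 3.3e-06).
Tek peak 18, in an intron 117.2 kb from the start, was open in 7.43% and 5.34% at P0 and 9.95%, 11.7% and 10.2% in adults. It rose by 2.12 (SE 0.26, edgeR adjusted p = 2.6e-06). At these 3 peaks the adult samples were higher as deposited and after scaling, whereas at the start-site peaks of Kdr, Flt1, Tek and Tie1 the adult means were lower as deposited.

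Nrp1 peak 6, in an intron, had shares of 1.86% and 0.971% at P0 and 1.36%, 5.48% and 3.02% in adults in Endo, which overlapped as deposited, and rose by 2.75 (SE 0.47, edgeR adjusted p = 1.4e-04). Flt1 peak 19 rose by 1.91 in Endo (SE 0.33, edgeR adjusted p = 1.6e-04), and in Stroma 2 the same peak fell by 3.28 (SE 0.64, edgeR adjusted p = 1.6e-04), from 5.36% ± 0.3 to 0.356% ± 0.312 of Stroma 2 nuclei. In Stroma 2, 23.7% of all peaks were higher in adults and 26.5% at P0. Marker lists in Stroma 2 moved too, the endothelial list with 231 to 236 at P0 and 313 to 338 in adults, the pericyte list with 251 to 263 at P0 and 308 to 322 in adults, the podocyte list with 252 to 256 at P0 and 314 to 431 in adults, the lymphatic list with 104 to 105 at P0 and 34.5 to 59.2 in adults and the immune list with 31.4 to 36.1 at P0 and 19.4 to 27.6 in adults (CPM). Genes within a list differed. In the endothelial list Plvap rose by 0.93 and Ehd3 by 0.91, while Cdh5 fell by 0.97 and Cldn5 by 1.25. In the podocyte list Synpo rose by 0.59, while Nphs1 fell by 1.13. The part of these list shifts in the result was not tested.

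Of the 15 peaks over an annotated start, 13 were tested in Endo and 6 rose, which were Egfl7 peak 2 by 0.89, Tie1 peak 7 by 0.85, Flt1 peak 37 by 0.82, Egfl7 peak 5 by 0.67, Kdr peak 15 by 0.64 and Nrp1 peak 1 by 0.56. None of these 6 passed without P0 sample 1, without P0 sample 2 or after thinning, and 2 passed with DESeq2. Among the start-site peaks that did not pass the test were Tek peak 1 (0.39), Angpt1 peak 51 (-0.74), Angpt2 peak 25 (-0.33), Vegfa peak 8 (-0.85) and Vegfa peak 9 (-0.19).

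The only peak of these genes that fell in Endo was Kdr peak 5, over an exon 36.4 kb from the start. It was open in 10.8% and 10.7% at P0 and 1.81%, 1.54% and 0.696% in adults, without overlap, and fell by 1.63 (SE 0.38, edgeR adjusted p = 0.0023). After thinning it stood at 1.91% and 2.77% at P0 and 0.529%, 0.3% and 0.501% in adults, also without overlap, and it was not called with DESeq2 and had too few calls to be tested after thinning. Kdr thus held peaks that differed in opposite directions between the stages.

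In the epithelium most calls were higher at P0, but few of them passed without a P0 sample. Over the 8 epithelial clusters, 26 of 70 tests of one of the 10 genes in a cluster were higher at P0 and 5 higher in adults. Kdr, Flt1, Flt4, Tek and Tie1 gave 15 of the 26 and none of the 5. The counts became 5 and 1 without P0 sample 1, 7 and 2 without P0 sample 2 and 16 and 2 with DESeq2. After thinning they were 2 and 1 of 36 tests, since 13 of the 26 had too few calls left to be tested. Of the other 13, which the same samples had chosen for their direction, 2 passed, and the log2 differences of all 13 after thinning ran from -2.41 to -0.37. The share of all genes higher at P0 was 5.06% in Podo, 15.6% in PCT, 7.46% in PST, 29.3% in LOH, 4.17% in DCT, 15.3% in CNT, 17.2% in PC and 0.734% in IC. The share higher in adults was 5.76% in Podo, 12.8% in PCT, 5.44% in PST, 22.8% in LOH, 1.38% in DCT, 9.74% in CNT, 12.4% in PC and 0.265% in IC. No member passed edgeR's test in DCT (6 tested, 2 with an unadjusted p under 0.05), IC (8 tested, 6 with an unadjusted p under 0.05) or Immune (4 tested, 0 with an unadjusted p under 0.05), and DESeq2 called 0 in each. In Immune this stood beside 0% and 0% of all genes, higher in adults and at P0.

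In the fit on all samples, Kdr fell by 1.84 in CNT, 1.54 in LOH, 1.46 in PST and 1.33 in PC. In PC it went from 26.9 ± 1.5 CPM at P0 to 11.9 ± 8.37 in adults, where Endo had 248 and 362. Flt4 fell by 2.07 in CNT, 0.86 in PC, 0.74 in PCT and 0.72 in LOH. Flt1 fell by 1.13 in CNT, 0.86 in PCT, 0.81 in Podo and 0.65 in PC, and Tek fell by 1.23 in LOH and 0.89 in PCT. Tie1 fell by 1.38 in PCT. Of these calls, only Flt4 in CNT and Tie1 in PCT passed without P0 sample 1. Flt4 in CNT passed without P0 sample 2 as well, as did Kdr in LOH, Flt1 in CNT and Tek in LOH. None passed after thinning, where Flt4 in CNT, Flt1 in CNT and Podo, Flt4 in PC, Tie1 in PCT and Kdr in each cluster could not be tested. The endothelial marker list was also lower in adults in 4 of the clusters (CPM), at 156 to 171 at P0 and 111 to 133 in adults in LOH, 95.4 to 113 at P0 and 65.4 to 80.6 in adults in PCT, 148 to 173 at P0 and 76.4 to 101 in adults in CNT and 202 to 206 at P0 and 128 to 177 in adults in PC. In the other clusters named here its stages overlapped, at 110.2 to 127 at P0 and 105 to 119 in adults in PST and 176 to 182 at P0 and 129.7 to 198 in adults in Podo. Other lists were lower in these adult clusters too. The podocyte list had 149.6 to 152 at P0 and 68 to 97.9 in adults in LOH, 205 to 209.8 at P0 and 126 to 149.8 in adults in PCT, 151 to 156 at P0 and 49.3 to 89.7 in adults in CNT and 188 to 202 at P0 and 82.8 to 114 in adults in PC. The pericyte list had 112 to 127 at P0 and 44.7 to 58.2 in adults in LOH, 67.1 to 71.7 at P0 and 46.4 to 57.3 in adults in PCT, 114 to 132 at P0 and 49.3 to 87 in adults in CNT and 109 to 111 at P0 and 77.3 to 95.7 in adults in PC. In LOH all 4 podocyte and all 3 pericyte genes fell. In the endothelial list there only Cldn5 (-2.67) and Pecam1 (-0.99) fell, while Esam rose by 0.70. In PST the podocyte list had 161 to 211 at P0 and 107 to 149.8 in adults. The lymphatic list there had 45.3 to 65.4 at P0 and 20.2 to 35.4 in adults. The immune list in PST was higher in adults, with 74.5 to 84.8 at P0 and 125 to 154 in adults. Of its 3 genes Csf1r rose by 0.97, Ptprc did not pass the test (-0.37) and C1qb could not be tested. The proximal tubule list was higher there too, with 272 to 276 at P0 and 299 to 428 in adults. In that list Lrp2 rose by 0.62, while Slc34a1 did not pass the test (-0.06). These PST shifts also stand beside the Angpt1 and Angpt2 calls in PST below. The part of these shifts in the result was not tested.

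**Figure D5:**
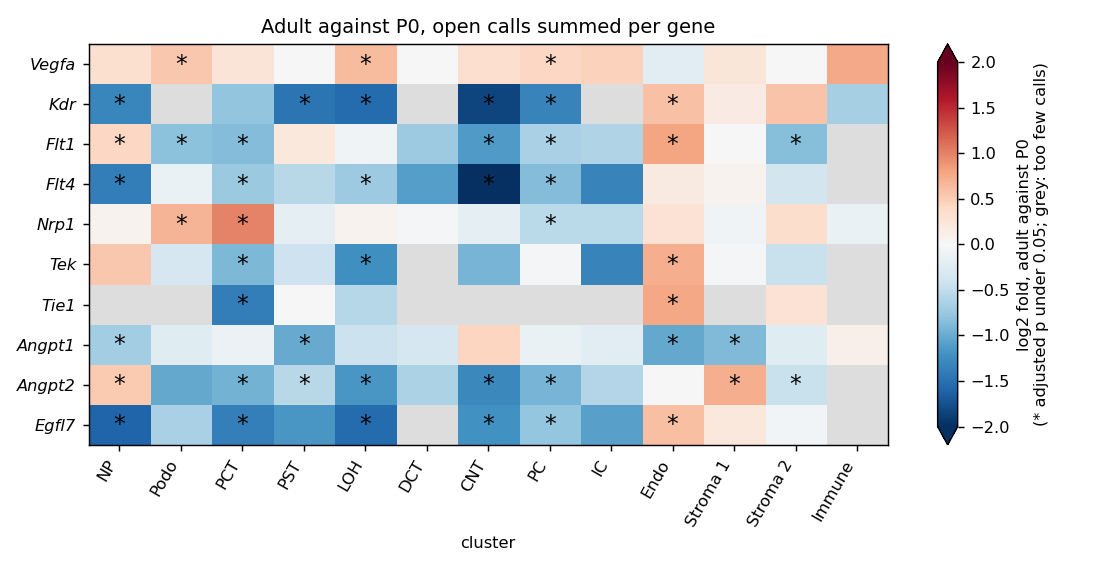
Log2 difference of adult against P0 (colour) in open calls summed per gene (rows) in each cluster (columns), with an asterisk where the edgeR adjusted p was under 0.05 and grey where too few calls were left. Kdr, Flt1, Tek, Tie1 and Egfl7 are higher in adults in Endo and, in the tubule, higher at P0 where marked, while Vegfa is higher in adults in Podo, LOH and PC.

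Of the peak tests over the 8 epithelial clusters, 17 of 190 were higher in adults and 53 higher at P0. The counts became 6 and 19 without P0 sample 1, 7 and 27 without P0 sample 2, 9 and 36 with DESeq2 and, of 28 tests, 2 and 1 after thinning. In LOH 11 of 54 rose and 22 fell, and in PCT 5 of 67 rose and 20 fell. The share of all peaks higher in adults was 6.07% in Podo, 16.3% in PCT, 9.04% in PST, 24.4% in LOH, 2.6% in DCT, 10.4% in CNT, 12.7% in PC and 0.108% in IC. The share higher at P0 was 3.52% in Podo, 17.6% in PCT, 6.99% in PST, 29.9% in LOH, 1.13% in DCT, 12.2% in CNT, 16.8% in PC and 0% in IC.

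Start-site and near-start peaks of receptors were among those that fell. The Kdr start-site peak (peak 15) fell by 3.26 in PC (SE 0.54, edgeR adjusted p = 1.0e-04), from 12% ± 1.66 to 1.12% ± 1.0 of PC nuclei. It fell by 2.44 in LOH (SE 0.38, edgeR adjusted p = 9.7e-06), from 10.3% ± 0.743 to 0.961% ± 0.584, and fell by 2.63 in PST (SE 0.55, edgeR adjusted p = 0.0074). Flt4 peak 1, over an exon 0.7 kb from the start, fell by 3.76 in LOH (SE 0.56, edgeR adjusted p = 4.8e-06), from 6.83% ± 0.312 to 0.327% ± 0.392. Flt1 peak 8, over an exon far inside the gene, fell by 4.39 in CNT (SE 0.79, edgeR adjusted p = 3.7e-04), from 9.89% ± 1.42 to 0.239% ± 0.207. Kdr peak 15 in PC and LOH and Flt4 peak 1 in LOH were called whichever sample was left out and with DESeq2, Kdr peak 15 in PST was not called when either P0 sample was left out, and Flt1 peak 8 in CNT could not be tested then. None had enough calls to be tested after thinning.

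Egfl7 fell in PCT, LOH, PC and CNT. In LOH it was called whichever sample was left out, after thinning and with DESeq2. In PCT it was lost without P0 sample 2 and after thinning (edgeR adjusted p = 0.30), and in PC and CNT it was not called when either P0 sample was left out or with DESeq2. Its peak 5 fell by 2.45 in CNT, 2.05 in LOH, 1.68 in PC, 1.66 in PST and 1.19 in PCT. The peak was called in LOH whichever sample was left out, but was lost in PST and PCT when either P0 sample was left out, in CNT without P0 sample 1 and in PC without P0 sample 2. When the 3 peaks shared with Gm20532 were left out, Egfl7 turned upward in PC (1.88, edgeR adjusted p = 0.038) and LOH (1.18, edgeR adjusted p = 0.095), so in those clusters the fall rested on the shared peaks.

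Vegfa was called higher in adults in 3 epithelial clusters. It rose by 0.63 in LOH (SE 0.13, edgeR adjusted p = 0.0023), from 91.1 ± 8.39 CPM at P0 to 135 ± 11.3 in adults, and also passed after thinning (0.66, edgeR adjusted p = 0.028) but not without P0 sample 1 (edgeR adjusted p = 0.055). It rose by 0.41 in PC (SE 0.13, edgeR adjusted p = 0.029) and rose by 0.53 in Podo (edgeR adjusted p = 0.0499). The PC value turned to -0.06 after thinning, and the call was also lost when either P0 sample or P56 sample 2 was left out and with DESeq2. The Podo call was lost in every alternative but the one that used unshared peaks only. In Podo the proximal tubule list had 59.96 to 71.4 at P0 and 99 to 210.3 in adults (CPM). The podocyte list there had 764 to 823 at P0 and 904 to 1069 in adults, with 0 of its 4 genes called. In PC the loop of Henle list had 13.9 to 23.5 at P0 and 33.8 to 51.4 in adults and Aqp2, the principal cell marker, 23.5 to 28.5 at P0 and 96.7 to 112 in adults (CPM). The part of these shifts was not tested. Of 34 tests of a Vegfa peak in an epithelial cluster, 6 rose, 5 in LOH and 1 in PC, and none fell. Of all peaks, 24.4% were higher in adults and 29.9% at P0 in LOH, and 12.7% and 16.8% in PC. In LOH peaks 6 and 9 were lost when either P0 sample was left out and with DESeq2. Peak 3 there was lost with DESeq2 and could not be tested when either P0 sample was left out. Peak 5 rose by 1.91 in LOH (SE 0.38, edgeR adjusted p = 1.8e-04), from 1.86% ± 0.405 to 3.26% ± 0.515, and peak 4 rose by 1.91 (SE 0.38, edgeR adjusted p = 1.9e-04), from 1.78% ± 0.516 to 3.12% ± 0.743. Both were called whichever sample was left out and with DESeq2. The loop of Henle list moved in LOH as well, with 99.1 to 125 at P0 and 439.6 to 527 in adults (CPM), and its part was not tested. Peak 7 rose by 2.04 in PC (SE 0.47, edgeR adjusted p = 0.0020), from 2.02% ± 0.0215 to 6.21% ± 3.04, and was not called when either P0 sample was left out.

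Nrp1 rose by 0.99 in PCT (SE 0.13, edgeR adjusted p = 8.5e-04), from 73.3 ± 1.73 CPM at P0 to 132 ± 12.3 in adults. In PCT the proximal tubule list had 494 to 516 at P0 and 567 to 774 in adults and the podocyte list was lower in each adult sample than at P0, as given above (CPM), and the part of these shifts was not tested. It rose by 0.68 in Podo (SE 0.16, edgeR adjusted p = 0.0052) and fell by 0.54 in PC (SE 0.13, edgeR adjusted p = 0.0059). The PCT call held whichever sample was left out and with DESeq2 but not after thinning (edgeR adjusted p = 0.063), and the Podo and PC calls were lost when either P0 sample was left out and after thinning. The proximal tubule and podocyte lists moved in Podo, as given for Vegfa, and there Lrp2 rose by 1.06 and Slc34a1 rose by 1.43. The part of both lists in the result was not tested. In PCT the Nrp1 start-site peak rose by 1.71 (SE 0.25, edgeR adjusted p = 2.9e-04), from 13.2% ± 5.93 to 33% ± 10.8. The intronic peak 38 fell by 3.87 in PC (SE 0.56, edgeR adjusted p = 2.6e-05), from 11.4% ± 0.387 to 0.606% ± 0.319, and also fell by 2.71 in LOH and 3.51 in CNT. The CNT call was lost without P0 sample 2 and could not be tested without P0 sample 1. The rise in PCT and the fall in PC thus included different peaks.

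Among the angiopoietins, Angpt1 fell by 0.88 in Stroma 1 (SE 0.18, edgeR adjusted p = 7.8e-04), from 111 ± 8.04 CPM at P0 to 67.8 ± 11.2 in adults, beside 16.5% of all genes there that were higher at P0 and 14% higher in adults. Angpt1 in Stroma 1 passed after thinning and with DESeq2 and was lost without P56 sample 2 (edgeR adjusted p = 0.067). Stroma 1 held 690 and 491 nuclei at P0 but 90, 107 and 101 in adults, and its marker lists moved between the stages. The endothelial list had 175 to 181 at P0 and 258 to 430.3 in adults, the proximal tubule list 48.1 to 63.7 at P0 and 90.8 to 333 in adults and the loop of Henle list 14.9 to 19.9 at P0 and 23.5 to 78.3 in adults (CPM). The podocyte list had 217 to 243 at P0 and 313 to 360 in adults, where Synpo rose by 0.48 and Podxl by 0.63. The lymphatic list had 83.2 to 86.7 at P0 and 37.4 to 50.4 in adults. The pericyte list overlapped, with 233 to 248 at P0 and 149.5 to 242 in adults, and of its 3 genes Pdgfrb fell by 0.68, while Notch3 (0.34) and Rgs5 (-0.53) did not pass the test. The part of these shifts in the Stroma 1 results, here and below, was not tested. Angpt1 fell by 1.00 in PST (SE 0.25, edgeR adjusted p = 0.025), and was not called when either P0 sample was left out or with DESeq2. In Stroma 2 the gene as a whole did not pass the test, but its peaks did so in both directions. Peak 25 fell by 2.17 (SE 0.38, edgeR adjusted p = 4.6e-05), from 11.3% ± 2.11 to 1.34% ± 0.693 of Stroma 2 nuclei, and peak 26 fell by 2.51. Peak 20 rose by 2.87 (SE 0.39, edgeR adjusted p = 2.4e-06), from 1.32% ± 0.24 to 4.77% ± 1.24, and peaks 22 and 46 rose by 3.18 and 2.07. Peaks 20, 22 and 25 were called whichever sample was left out, whereas peak 26 was lost without P0 sample 1 and peak 46 without P0 sample 2.

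Angpt2 fell in 6 clusters (CNT by 1.28, LOH by 1.17, PCT by 0.95, PC by 0.93, PST by 0.56 and Stroma 2 by 0.44) and rose by 0.73 in Stroma 1 and by 0.52 in NP. The fall in LOH was called whichever sample was left out, after thinning and with DESeq2. The calls in PCT, PC, PST, Stroma 1 and Stroma 2 were lost when either P0 sample was left out, that in CNT without P0 sample 1 and that in NP without P0 sample 2. Those in NP, PST and Stroma 1 were also lost without P56 sample 1, Stroma 1 without P56 sample 2 and Stroma 2 without P21 sample 1. With DESeq2 the calls in NP, PST, Stroma 1 and Stroma 2 were lost. After thinning all but LOH were lost, except CNT, which could not be tested. In Stroma 2, 16.6% of all genes were higher in adults and 20.8% at P0, and in NP 18.5% and 21%. Since all its peaks also lie in Mcph1, the calls of both genes cannot be told apart.

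In stroma, the intronic Tek peak 4 fell by 3.62 in Stroma 1 (SE 0.54, edgeR adjusted p = 1.8e-08), from 18.5% ± 1.43 to 0.972% ± 0.991, and fell by 1.45 in Stroma 2 (SE 0.30, edgeR adjusted p = 3.3e-04). Of all peaks in Stroma 1, 17% were higher in adults and 20.8% at P0. In NP, the intronic Flt1 peak 12 rose by 3.60 (SE 0.45, edgeR adjusted p = 2.9e-14), from 1.48% ± 0.583 to 15.5% ± 2.29 of NP nuclei, beside 19.2% of all peaks there that were higher in adults and 20.4% at P0. In LOH it rose by 1.78 (SE 0.29, edgeR adjusted p = 1.4e-05). The loop of Henle list in NP had 26.9 to 33.9 at P0 and 94.4 to 99.4 in adults (CPM), where Umod rose by 1.80 and Slc12a1 rose by 1.19, while the podocyte gene Nphs1 fell by 2.87. The podocyte list there had 201 to 203 at P0 and 121 to 187 in adults. The endothelial list had 176 to 183 at P0 and 109 to 147 in adults, although its gene Esam rose by 0.87. The part of these shifts in the NP result was not tested. In Immune only 1 peak of these genes had enough calls to be tested, and it was not called by edgeR (unadjusted p over 0.05) or DESeq2, beside 0.0995% and 0.0497% of all peaks.

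Of 25 other genes of the pathways, further ligands, co-receptors, hypoxia factors and endothelial targets, all 25 were tested in Endo, 8 rose and 1 fell, that is in the same test that called 11.4% and 13.9% of all genes. The 8 became 2 without P0 sample 1, 1 without P0 sample 2 and 3 after thinning. Eng, a co-receptor for TGF-beta family ligands, rose by 1.19 (edgeR adjusted p = 2.1e-04), from 166 ± 5.17 CPM at P0 to 369 ± 58.4 in adults. Notch4, an endothelial Notch receptor, rose by 0.82, the hypoxia factor Epas1 rose by 0.76, the semaphorin receptor Plxnd1 rose by 0.71 and the hypoxia factor Hif1a rose by 0.71. Robo4, a receptor that steadies vessels, rose by 0.67 and the Notch ligand Dll4 rose by 0.62. Of the fits without a sample, Dll4 was called only in that without P56 sample 1. Hif1a was called only when a P56 sample was left out. Both genes were called with DESeq2 but not after thinning. Apln, a ligand of endothelial tip cells, fell by 0.94 (edgeR adjusted p = 0.039), from 18.3 ± 1.9 CPM at P0 to 8.6 ± 2.69 in adults, but was called in only 1 of the 5 fits without a sample, was not called with DESeq2 and had too few calls to be tested after thinning. Eng was called in each of these settings. The median over the 25 genes was 0.39.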

How the data were processed

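Nuclei of mouse kidney were profiled by snATAC-seq in 5 samples. Per the labels and methods, the authors aligned reads to mm10 with Cell Ranger ATAC 1.1.0, called peaks with MACS2 on pooled nuclei per cell type, merged them and named clusters by marker genes. The deposited matrix holds binarized counts, 1 for a nucleus with a fragment in a peak, not scaled for depth. The authors gave the peak list, with positions, and the sample and cluster of each nucleus, as other deposited values. The scRNA-seq tables held here list clusters, stages and map positions of cells and were not used.

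Open calls were summed per sample and cluster of at least 20 nuclei. Stages were tested in R 4.3.3 with edgeR 4.0.16 (filterByExpr, minimum count 10 and minimum total 15, TMM, quasi-likelihood, Benjamini-Hochberg over all features at 0.05), with DESeq2 1.42.0 as an alternative. The fits were checked on simulated counts for Endo and PCT only, drawn with a common dispersion. That check cannot speak to the dependence on single samples or on thinning. Python 3.11.15 was used for the rest. Depth was 16980853 to 43794155 open calls per sample. Values are mean ± SD over samples, and intervals for counting error are not given. An exact permutation test of 2 against 3 samples cannot go below p = 0.2. Nuclei with under 1000 open peaks were left out of thinning, and barcodes holding 2 nuclei were not searched for. The clusters NP_LOH and PT_out, 664 nuclei, were left out.

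Named peaks per gene were the most open start-site peak, the highest in Endo, the highest in an epithelial cluster and, of peaks called between stages, the 2 with the smallest adjusted p in Endo and in each epithelial cluster. Named outside this rule, after their values were seen, were Kdr peak 5, Nrp1 peak 9, Tek peak 4 and Flt1 peaks 12 and 19 in stroma and NP, Angpt1 peaks 20, 22, 25, 26, 46 and 50, Angpt2 peak 17 and the other peaks that a cluster led. The members and lists were chosen with earlier results of these data known.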

Additional observations from a re-analysis of the deposited data

Results flagged for a closer look

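Calls with no overlap of P0 and adult samples were singled out for member genes that had such calls in opposite directions in different clusters. Egfl7 in CNT (-1.20), where the stages overlapped, is therefore not listed. The difference between clusters was not tested. Values are log2 differences of adult against P0 in open calls summed per gene, from edgeR with 2 P0 and 3 adult samples. Of all 47 calls of one of these genes in a cluster, 13 were also made without P0 sample 1 and 16 without P0 sample 2. After thinning, 8 were made, 21 were lost and 18 could not be tested.

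Kdr had 0.59 in Endo and -1.84 in CNT, -1.54 in LOH, -1.46 in PST, -1.33 in PC and -1.30 in NP. Flt1 had 0.79 in Endo and 0.41 in NP, and -1.13 in CNT, -0.86 in PCT, -0.85 in Stroma 2, -0.81 in Podo and -0.65 in PC. Of the fits without a sample, the Flt1 call in NP was made only in that without P21 sample 1. It was not made with DESeq2 and could not be tested after thinning. Tek had 0.73 in Endo, -1.23 in LOH and -0.89 in PCT. Tie1 had 0.77 in Endo and -1.38 in PCT. Egfl7 had 0.60 in Endo and -1.60 in NP, -1.53 in LOH, -1.37 in PCT and -0.77 in PC. Without the peaks it shares with Gm20532, Egfl7 turned upward in LOH (1.18) and PC (1.88).

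Nrp1 had 0.99 in PCT and 0.68 in Podo but -0.54 in PC. Angpt2 had 0.73 in Stroma 1 and 0.52 in NP, and -1.28 in CNT, -1.17 in LOH, -0.95 in PCT, -0.93 in PC, -0.56 in PST and -0.44 in Stroma 2, with all its peaks shared with Mcph1. Adult NP sums held 52 to 90 nuclei.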

How the results depend on the processing

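Leaving out a sample gave 6 to 34 peaks higher in adult Endo and 1 to 4 higher at P0. In epithelium it gave 6 to 21 and 19 to 57, for genes over all clusters 3 to 13 and 9 to 42, and for the other pathway genes 1 to 11 and 0 to 1. The lowest counts came without a P0 sample, when the lone sample is assumed to vary like the adults. Peaks led by Endo numbered 42 to 45, above the epithelial mean 70 to 81, below it 51 to 55.

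Thinning gave 3 and 0 peaks higher in adult and P0 Endo, 2 and 1 in epithelium, 4 and 4 genes, 3 and 0 other pathway genes, 26 peaks led by Endo and 27 below the epithelial mean. DESeq2 gave 17 and 0 peaks in Endo, 9 higher in adult epithelium, 7 and 22 genes and 0 other pathway genes higher at P0. Its size factors gave 2 Endo peaks higher at P0. Without the filter, Endo had 11 and 3 and adult epithelium 27. Without shared peaks, 21 genes were higher at P0, and Egfl7 reversed in LOH (1.18) and PC (1.88). After thinning, Vegfa in PC reversed (-0.059). Against the highest epithelial cluster, 86 peaks were lower in Endo. The causes were not tested. A minimum of 50 nuclei, 5 kb upstream, CPM, no minimum share and NP in the epithelial mean kept the counts within 1.5 times.

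The replicate block, added after seeing the data, gave 31 and 1 peaks in Endo, 17 and 52 in epithelium, 11 and 33 genes, and 8 and 0 other pathway genes. The metadata call the numbers batches, but no source ties a number across stages, and same-numbered P0 and P56 samples deviated together with r = 0.12 in Endo. Shallow sums and binarized calls limit small differences.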
